A study of Mus musculus with 8 samples.

Results

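Elongation factor mRNAs and other non-ribosomal mRNAs of the TOP class were followed in P19 cells, a mouse embryonal carcinoma line of wild-type genotype that grows as undifferentiated, pluripotent cells. The 10 members were Eef1a1, Eef1b2, Eef1d, Eef1g, Eef2, Tpt1, Rack1, Nap1l1, Naca and Btf3, out of 13120 genes with a read. A read belonged to a member when its poly(A) call carried the quality tag PASS, its alignment was of class mRNA and its gene symbol was that of the member. The list was chosen in part for the tail change of Eef1a1 at 24 h, so every value of Eef1a1 in that comparison is a description and was not tested. Cultures received DMSO, the solvent, or 10 µM MHY, the mTOR activator MHY1485, for 24 h or 48 h. Each of the 4 groups (DMSO 24 h, MHY 24 h, DMSO 48 h and MHY 48 h) had 2 libraries of nanopore direct RNA sequencing, in which 1 read is 1 poly(A) RNA molecule with its tail. The libraries carry the numbers 21 and 23 at 24 h and 24 and 25 at 48 h. A library here is a barcoded sample. The study's methods call the samples of a group biological replicates, but neither they nor the labels say that each came from a culture of its own, so p-values measure the spread between these samples, which may be technical.

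TOP mRNAs begin with a run of C and T bases right at the cap, and the mTOR kinase sets how well they are translated, through LARP1 and other proteins that bind this start. Ribosomal proteins make up most of the class. The elongation factors share the start: eEF1A (Eef1a1) brings aminoacyl-tRNA to the ribosome, the subunits of eEF1B (Eef1b2, Eef1d and Eef1g) reload eEF1A with GTP, and eEF2 (Eef2) moves the ribosome along the mRNA. Rack1 is a scaffold protein on the small ribosomal subunit, and Tpt1 is the translationally controlled tumour protein. Naca and Btf3 are the alpha and beta subunits of the complex that meets the nascent chain at the ribosome exit, and Nap1l1 is a histone chaperone. Naca and Btf3 are not on the list of TOP mRNAs that the study drew from the literature, and were kept here as members of the list given above. A poly(A) tail is the landing site of poly(A)-binding protein, and tail length is tied to the stability and translation of an mRNA. Tails were sorted into a class under 30 nt, a class of 30 to 90 nt (the about 60-nt class of the study) and longer tails.

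The libraries held 178369 to 316546 mRNA reads. The median tail of all genes was 100.13 to 102.5 nt in the 24 h libraries and 92.37 to 99.29 nt in the 48 h libraries. The lowest median and the highest share of tails under 30 nt (4.46%, against 2.17% to 3.38% in the other 7 libraries) were both in MHY replicate 24, which stood apart from the rest. Of 10 markers of pluripotent cells 9 had reads, summing to 3637 to 4187 RPM (reads per 1000000 mRNA reads) in each library. Zfp42 was at 0. Of 6 neuronal markers 5 had reads (215 to 404 RPM, Dcx at 0), of 5 endoderm markers 3 had reads (0 to 9.34 RPM, Sox17 and Afp at 0), and of 5 fibroblast and mesoderm markers 4 had reads (39.2 to 240 RPM, Col3a1 at 0). The range of the neuronal sum was 288 to 337 under DMSO and 276 to 404 under MHY at 24 h, and 287 to 328 under DMSO and 215 to 247 under MHY at 48 h. The fibroblast and mesoderm sum was 102.96 to 240.1 under DMSO and 48.1 to 196 under MHY at 48 h, and 39.2 to 79.8 in the 24 h libraries. Over the 8 libraries the neuronal reads were mostly of Stmn2 (455) and Tubb3 (94), with 9 of Elavl3, 6 of Map2 and 2 of Neurod1. Those of the fibroblast and mesoderm list were mostly of T (166), with 24 of Thy1, 8 of Col1a2 and 5 of Col1a1. Among the pluripotency markers Pou5f1 had the most reads (5098). Whether other cell types were present, and their part in the results below, was not tested.

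The position at which reads most often begin was taken as a guide to the start of each member's mRNA in these cells. The 30 bases around the most common read start of each member's leading transcript are printed below (mm10 positions, RNA strand, 5′ to 3′, 25 bases before the read start and 5 from it on, except in Rack1, where the annotated transcript begins 14 bases before it). Capitals mark the longest unbroken run of C and T, shown because such a run at the cap defines the class.
Eef1a1, chr9:78481654-78481683, minus strand: gccttggacgTTCTTTTTCgcaacgggttt
Eef1b2, chr1:63177117-63177146, plus strand: gacgctctgggTCCTTTTTTTCCCTCagcg
Eef1d, chr15:75909291-75909320, minus strand: cgcgggcgCCCTCCCTCTCCTTTgcagtcc
Eef1g, chr19:8967187-8967216, plus strand: cccaCCCCCTTTCTCTgcggaatcaccatg
Eef2, chr10:81176633-81176662, plus strand: tgacgtcagcggTCTCTTCCgccgcagccg
Tpt1, chr14:75845322-75845351, plus strand: cgcgtcggccttttccgcccgCTCCCCCCT
Rack1, chr11:48800360-48800389, plus strand: CTTTTTCTCCacagggtcgtggtggcagcc
Nap1l1, chr10:111481254-111481283, plus strand: tttaacactgTCCTTTTTCCTTgtagacat
Naca, chr10:128035631-128035660, plus strand: cgggctcgctcgTTCTCTTTCTgccgccat
Btf3, chr13:98316960-98316989, minus strand: ccggCCTCCCTCTagctgccatcttgcgtc

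The members were chosen as a list of TOP mRNAs, although Naca and Btf3 are not on that of the study, so what follows on their starts is a description. In all 10 members the window held a run of at least 8 C or T bases, the longest being 15 bases in Eef1b2 and Eef1d and the shortest 8 in Eef2. Such a run was present in 71 of 83 leading transcripts of ribosomal protein genes (85.5%) and in 260 of 2065 leading transcripts of all other genes (12.6%), among genes with at least 100 reads. Over all 2158 such genes, members included, it was present in 341 (15.8%). Only unbroken runs of C and T on the RNA strand were counted. In 9 members the run began 13 to 21 bases before the most common read start. In Tpt1 the longest run lay at the read start itself, and a shorter C and T run stood further upstream. Direct RNA reads usually stop some bases short of the cap, so the read start marks the cap only to within that distance. In Nap1l1 44.1% of leading-transcript reads came to within 20 bases of the read start, and other transcripts of the gene begin upstream. Whether that read start lies at a cap was not tested. The most common read start lay 14 (Rack1) to 662 (Nap1l1) bases into the annotated transcript. It lay 317 bases in for Eef1b2, 254 for Tpt1, 171 for Eef1g, 81 for Naca and 66 for Eef1a1. For Eef1d it was 60, for Btf3 42 and for Eef2 27, so in most members it was not at the annotated start. In Eef2 14.8% of leading-transcript reads reached this position to within 20 bases. The windows lay in the annotated 5′ untranslated part of exon sequence, except in Eef1g, where the last bases reached the start codon.

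**Figure D1:**
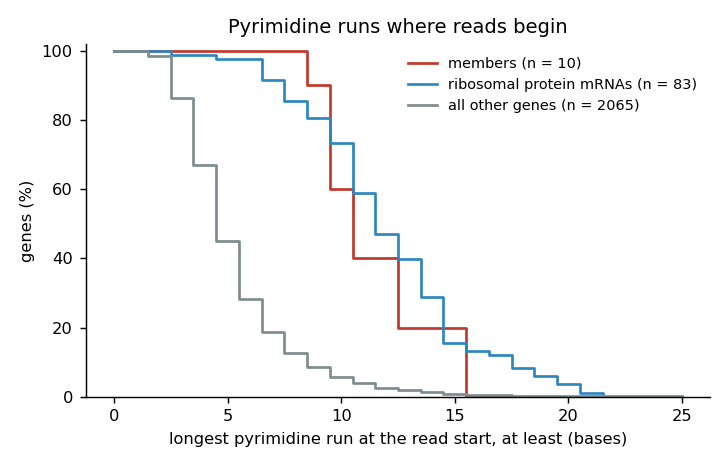
Percentage of genes (y axis) whose 30-base window at the most common read start held an unbroken C and T run of at least the length on the x axis, for the 10 members, 83 ribosomal protein genes and 2065 other genes. All 10 members and 85.5% of the ribosomal protein genes reach 8 bases, against 12.6% of the other genes.

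The members took 57705 reads, between 2.70% and 3.17% of each library. Eef1a1 was the most read gene of the series (21484 reads, 37.2% of all member reads), and Rack1 ranked 15th with 10256 reads. The level of a gene was its RPM after scaling with median-of-ratios size factors. Because a read is a molecule captured by its tail, no division by length was made. The mean level over the 8 libraries was 11166 (lowest 9137, highest 12677) for Eef1a1 and 5339 (4424 to 5919) for Rack1, and these ranges did not overlap with each other or with that of any other member. The next in order were Tpt1 (2522, from 2268 to 3098), Eef1b2 (2297, from 1733 to 2613), Eef1g (2192, from 1971 to 2514), Eef2 (2062, from 1527 to 2439) and Naca (1760, from 1538 to 1984), each overlapping with its neighbours. Btf3 (1356, from 1091 to 1524), Nap1l1 (778, from 515 to 1027) and Eef1d (619, from 503 to 735) came last. The range of Btf3 ended below that of Naca and began above that of Nap1l1, while those of Nap1l1 and Eef1d overlapped.

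Ratios of molecules were taken within each library. There were 4.93 to 5.98 reads of Eef1a1 for each read of Eef2, and 2.04 to 2.56 for each read of the 3 subunits of eEF1B together. Naca, the alpha subunit of the nascent chain complex, had 1.21 to 1.41 reads for each read of its partner Btf3. Reads of Eef1a1 came from 1 transcript (ENSMUST00000042235). The leading transcript held 91.9% to 99.97% of the reads in Eef1b2, Eef1g, Eef2, Tpt1, Rack1, Naca and Btf3, 77.7% in Eef1d and 63.1% in Nap1l1. Only 69.2% of Eef1d alignments had a mapping quality of at least 10, against 82.6% in Eef1g and 88.3% to 99.9% in the other members, so transcripts of Eef1d were not told apart well.

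Under DMSO the members spanned a wider range of tail lengths than any of their differences between treatments. Over the 4 DMSO libraries the median tail was shortest in Eef1b2 (mean 80.9 nt, from 72.8 to 84.97 nt), which lay at percentile 2.98 of the 1949 genes with at least 10 reads in each library. Tpt1 (88.4 nt) and Eef1d (90.03 nt) followed, at percentiles 12.4 and 16.01. Btf3 (94.05 nt), Eef1g (94.5 nt), Rack1 (96.2 nt), Eef2 (99.9 nt) and Naca (100.9 nt) lay between percentiles 28.5 and 50.8. The longest tails were those of Eef1a1 (105.7 nt, from 99.7 to 109.4 nt, percentile 64.8) and Nap1l1 (107.96 nt, from 103.9 to 115.2 nt, percentile 71.4). Neighbours in this order overlapped in their ranges over libraries, but those of Eef1b2 and Eef1a1 did not. The median over the 10 members was 95.4 nt, beside 94.6 nt over 83 ribosomal protein genes and 100.6 nt over all 1949 genes.

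The shortest class followed the same order only in part. Tails under 30 nt made up 7.02% of Eef1b2 reads (DMSO libraries, from 5.39% to 10.2%) and 0.557% of Eef1a1 reads (from 0.334% to 1.07%), although Eef1b2 encodes a subunit of the factor that reloads eEF1A. The share was 4.35% in Eef1d and 3.62% in Tpt1, and between 1.39% (Eef2) and 2.42% (Eef1g) in the remaining 6 members. The 30 to 90 nt share under DMSO ran from 33.7% in Nap1l1 and 35.2% in Eef1a1 to 47.4% in Tpt1 and 49.3% in Eef1b2. The median member had 43.9% of its reads in this class, beside 44.2% for ribosomal protein genes and 39.1% for all genes.

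Eef1a1 at 24 h, the change the list was selected on, is given here as values only. The 30 to 90 nt share of Eef1a1 was 32.0% (DMSO replicate 21, 95% Wilson interval 30.1% to 34.0%), 32.6% (DMSO replicate 23, 31.0% to 34.2%), 37.2% (MHY replicate 21, 35.3% to 39.1%) and 36.3% (MHY replicate 23, 34.3% to 38.4%). The MHY libraries were both higher, and the intervals, which cover counting error only, did not overlap between treatments. The group means were 32.3% ± 0.433 (SD, n = 2) under DMSO and 36.8% ± 0.603 (SD, n = 2) under MHY, a difference of 0.28 in log2 odds (SE 0.08). The share of tails over 90 nt was 67.5% and 67.0% under DMSO and 62.3% and 63.0% under MHY. The median tail was 109.4 nt in DMSO replicate 21, 108.5 nt in DMSO replicate 23, 103.7 nt in MHY replicate 21 and 103.5 nt in MHY replicate 23. Tails under 30 nt made up 0.365% to 0.634% of reads in these 4 libraries, so the difference lay almost wholly between the 30 to 90 nt class and longer tails.

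Split by sequencing run or by read length, the 24 h values of Eef1a1 come from the same reads the choice used, so they describe that difference and support nothing. Each of the 3 runs held all 4 libraries of that time. Taken within a run, the 30 to 90 nt share under MHY was higher by 5.46, 3.44 and 4.09 percentage points, and in each run the lower MHY library was above the higher DMSO library. The difference was present in reads that reached the start of the mRNA (to within 20 nt of the most common read start, 68.3% of Eef1a1 reads), at 31.5% ± 1.79 (SD, n = 2) under DMSO and 36.1% ± 0.171 (SD, n = 2) under MHY. It was also present in shorter reads, at 34.2% ± 2.52 (SD, n = 2) and 38.1% ± 2.21 (SD, n = 2). The level of Eef1a1 at 24 h was 11814 and 12251 under DMSO and 11367 and 11826 under MHY, and these ranges overlapped.

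**Figure D2:**
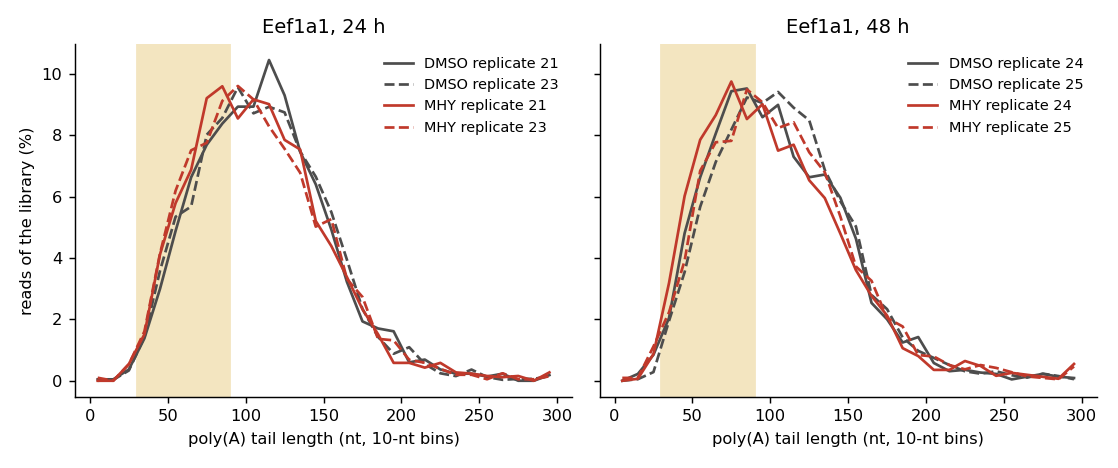
Tail length distribution of Eef1a1 reads, as the percentage of each library's reads (y axis) in 10-nt bins of tail length (x axis, tails over 300 nt in the last bin), for the 4 libraries at 24 h and the 4 at 48 h. The shaded band is the 30 to 90 nt class, where at 24 h both MHY lines run above both DMSO lines in sum (36.3% and 37.2% against 32.0% and 32.6%), while at 48 h the treatments interleave.

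At 48 h, a time other than the one named in the choice of the list, the 30 to 90 nt share of Eef1a1 was 40.5% (DMSO replicate 24), 35.7% (DMSO replicate 25), 44.0% (MHY replicate 24) and 38.1% (MHY replicate 25). The treatments overlapped, with the higher DMSO library above the lower MHY library. The difference in log2 odds was 0.25 (SE 0.08), which did not pass the test over all genes (limma, adjusted p = 0.305). It was 0.06 without DMSO replicate 25 and 0.04 without MHY replicate 24. Without DMSO replicate 24 it was 0.36 (limma, adjusted p = 0.00760) and without MHY replicate 25 0.40 (limma, adjusted p = 0.000370). Leaving out MHY replicate 23 of the 24 h libraries kept it at 0.25 with a smaller spread (limma, adjusted p = 0.0457). Within the 2 runs of 48 h the share was higher under MHY by 1.52 and 3.93 percentage points, with overlapping libraries in both runs. The exact permutation test of 2 against 2 libraries can give no p below 0.333.

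The DMSO libraries themselves differed between times by as much as the treatment. The 30 to 90 nt share of Eef1a1 was 38.1% ± 3.40 (SD, n = 2) in DMSO libraries at 48 h, above the 36.8% of MHY at 24 h. Times were sequenced in separate runs, so time and run cannot be told apart.

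**Figure D3:**
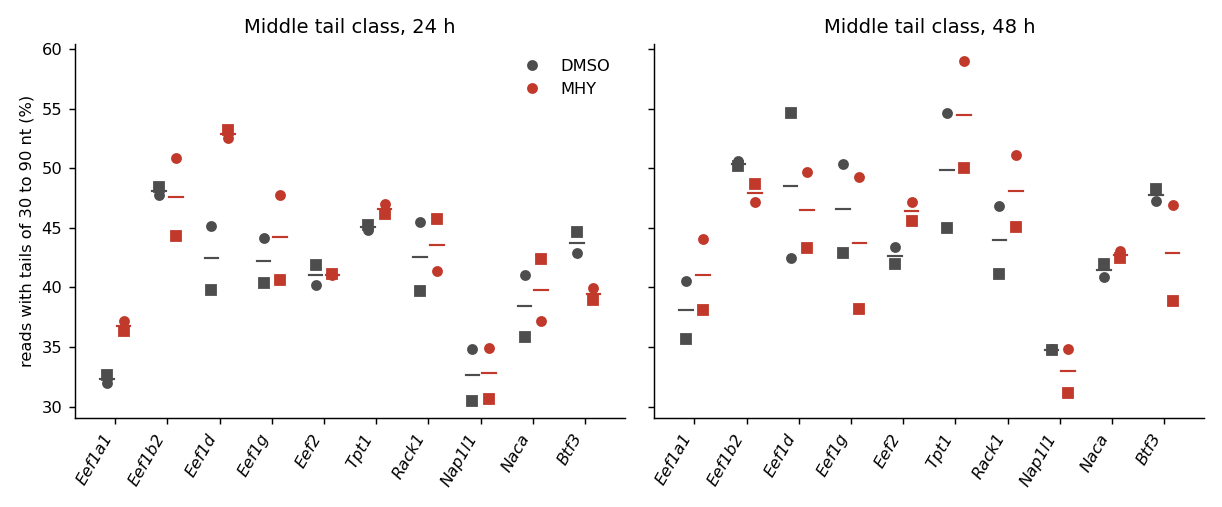
Percentage of each member's reads with tails of 30 to 90 nt (y axis) in each library at 24 h and 48 h, DMSO in grey and MHY in red. Points are libraries (circles replicate 21 or 24, squares replicate 23 or 25), and short lines are group means. Eef1a1 at 24 h shows treatments that do not overlap, and Nap1l1 and Eef1a1 lie lowest in most libraries.

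Outside Eef1a1, no member passed the test of the 30 to 90 nt share at 24 h or 48 h. At 24 h 0 of 1949 genes were called (0%, limma, adjusted p under 0.05), and 95 had an unadjusted p under 0.05. In 18.1% of genes MHY libraries did not overlap with the DMSO libraries and were higher. Eef1a1, Eef1d and Tpt1 were the 3 members of that kind, and nothing is read from this count because the choice used Eef1a1 there. In Eef1d, the delta subunit of eEF1B, the share was 45.2% and 39.8% under DMSO and 52.6% and 53.3% under MHY (log2 odds 0.62, SE 0.28, limma, adjusted p = 0.979), on 92 to 176 reads a library. The difference for Eef1d was 17.7 and 13.7 percentage points in 2 of the runs and -5.90 in the third, on 18 to 37 reads in the smallest library of a run. At 48 h the share of Eef1d was 42.4% and 54.7% under DMSO and 49.7% and 43.3% under MHY, with overlap and a difference below 0 (log2 odds -0.17, SE 0.25, limma, adjusted p = 0.974). That difference was -0.44 without DMSO replicate 24, 0.26 without DMSO replicate 25, -0.38 without MHY replicate 24 and -0.0082 without MHY replicate 25. The effect at 48 h minus that at 24 h was -0.78 in Eef1d (SE 0.38, limma, adjusted p = 0.994).

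Btf3 had differences below 0 at both times. Its 30 to 90 nt share was 42.9% and 44.6% under DMSO and 39.9% and 38.9% under MHY at 24 h. At 48 h it was 47.3% and 48.3% under DMSO and 46.9% and 38.9% under MHY. The MHY libraries were thus lower with no overlap at each time, as in 14.1% of genes at 24 h, 15.3% at 48 h and 2.77% (54 of 1949 genes) at both. The log2 odds difference was -0.26 (SE 0.18) at 24 h and -0.25 (SE 0.17) at 48 h, neither past the test (limma, adjusted p = 0.988 and 0.925). Within the 3 runs of 24 h the Btf3 share under MHY differed by -2.35, -10.6 and 0.37 percentage points, so that 1 run did not show it, on 52 to 96 reads in the smallest library of a run. Within the 2 runs of 48 h it differed by -6.56 and -3.19, with overlapping libraries in the run of -3.19. Without MHY replicate 24 the 48 h difference in log2 odds was -0.53, and without MHY replicate 25 -0.06. Its partner Naca had differences of 0.09 (SE 0.16) and 0.07 (SE 0.15).

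At 48 h 5 of 1949 genes (0.257%) were called in the 30 to 90 nt share, all higher under MHY, and no member was among them. The MHY libraries were higher with no overlap in 17.8% of genes and in 2 members, Eef2 and Naca, and lower with no overlap in 15.3% of genes and in 2 members, Eef1b2 and Btf3. Neither count of members is far from the share over all genes. In Eef2, the translocation factor, the share was 43.4% and 42.0% under DMSO and 47.2% and 45.6% under MHY (log2 odds 0.23, SE 0.13, limma, adjusted p = 0.907). Within the 2 runs the share of Eef2 was higher under MHY by 3.58 and 3.93 percentage points, with no overlap in either run. Tpt1 and Rack1 had larger differences on overlapping libraries. Tpt1 had 54.7% and 45.0% under DMSO and 59.0% and 50.0% under MHY (log2 odds 0.37, SE 0.15, limma, adjusted p = 0.561). Rack1 had 46.8% and 41.2% under DMSO and 51.1% and 45.1% under MHY (log2 odds 0.31, SE 0.11, limma, adjusted p = 0.394). In both genes, as in Eef1a1, replicate 24 was higher than replicate 25 under either treatment. When MHY replicate 24 was left out, the differences were 0.05 in Tpt1 and 0.11 in Rack1. Without DMSO replicate 25 they were 0.04 and 0.10. Without MHY replicate 25 they were 0.58 and 0.45, and without DMSO replicate 24 0.60 and 0.44, in each case past the test (limma, adjusted p = 0.0221 and 0.0124, then 0.0440 for both).

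Over the 10 members the median difference in the 30 to 90 nt share was 0.09 in log2 odds at 24 h and 0.00 at 48 h, beside 0.05 and 0.05 over all 1949 genes. Without Eef1a1, whose 24 h value the choice used, the median of the other 9 members was 0.08 at 24 h. The 24 h median of the 10 members was 0.20 without DMSO replicate 21, 0.13 without MHY replicate 23, 0.03 without MHY replicate 21 and 0.02 without DMSO replicate 23, and that of all genes was 0.09, 0.11, -0.0084 and -0.02. At 48 h the members' median ran from -0.03 without MHY replicate 24 to 0.14 without MHY replicate 25. The 83 ribosomal protein genes had medians of 0.13 and 0.20, with 77 of 83 above 0 at 48 h against 5 of 10 members. Ribosomal protein genes thus lay mostly on one side at 48 h, and the members were evenly split. Whether the 2 lists differ was not tested. Called genes were 0 of 83 at 24 h and 2 of 83 at 48 h, both higher under MHY.

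Tails under 30 nt were read on few molecules per member and library. At 24 h 0 of 1949 genes (0%) were called and 110 had an unadjusted p under 0.05. The MHY libraries were lower with no overlap in 17.0% of genes and in 6 members, Eef1b2, Eef1d, Eef1g, Tpt1, Nap1l1 and Btf3, and higher with no overlap in 13.1% of genes and in Eef1a1 and Rack1. The choice of Eef1a1 rests on the same 24 h libraries. The median member difference was -0.36 in log2 odds (-0.45 without Eef1a1), beside -0.07 over all genes. With a bound of 20 nt in place of 30 nt it turned to 0.13, beside 0.09 over all genes. It was -0.67 without DMSO replicate 23 and -0.21 without DMSO replicate 21. In Tpt1 the share was 4.21% and 3.67% under DMSO and 2.80% and 1.86% under MHY (log2 odds -0.76, SE 0.24, limma, adjusted p = 0.684).

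At 48 h the differences in this class were above 0 in 8 of 10 members, while 33.5% of all genes were below 0, with a median of 0.81 in log2 odds beside 0.41 over all genes and 0.80 over the ribosomal protein genes. Without DMSO replicate 25 the members' median was 0.23, with 5 of 10 above 0, beside 0.25 over all genes. It was 0.57 without MHY replicate 24 (0.30 over all genes) and 0.91 without DMSO replicate 24 (0.46 over all genes). In 2 members, Tpt1 and Nap1l1, the MHY libraries were lower with no overlap at 24 h and higher with no overlap at 48 h, as in 4.62% of all genes. Of 1949 genes 7 were called (0.359%), all up, of which 6 were ribosomal protein genes and none was a member. No overlap and higher MHY libraries were seen in 27.7% of genes and in 5 members, Eef2, Tpt1, Rack1, Nap1l1 and Naca. In Tpt1 the share was 3.56% and 3.03% under DMSO and 6.36% and 5.58% under MHY (log2 odds 0.92, SE 0.22, limma, adjusted p = 0.127). In Naca it was 1.54% and 2.12% under DMSO and 4.59% and 3.35% under MHY (log2 odds 1.11, SE 0.43, limma, adjusted p = 0.426). In Eef2 it was 1.399% and 1.60% under DMSO and 4.05% and 1.90% under MHY (log2 odds 0.92, SE 0.40, limma, adjusted p = 0.455), and the difference was 0.33 without MHY replicate 24 and 1.40 without MHY replicate 25. These MHY libraries were also the ones with more short tails over all genes (4.46% and 3.38%, against 2.87% and 2.57% under DMSO), and the part of that shift in the members was not tested. Eef1a1 kept few short tails at 48 h too, at 1.07% and 0.334% under DMSO and 0.934% and 1.30% under MHY, and its difference of 1.05 (SE 0.43, limma, adjusted p = 0.452) was 1.66 without DMSO replicate 24 and close to 0 (-0.0023) without DMSO replicate 25.

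No member was called in the median tail at 24 h, or at 48 h in the fit used for the other values. With a barcode confidence of at least 0.75 the 48 h difference passed the test in Rack1 (limma, adjusted p = 0.0145), Tpt1 (0.0302) and Eef1a1 (0.0318). That of Rack1 also passed with transcripts in place of genes (limma, adjusted p = 0.0340) and with a replicate block (0.0166). At 24 h 0 of 1949 genes (0%) were called, 77 had an unadjusted p under 0.05, and the medians were -1.23 nt over the members (-0.39 nt without Eef1a1) and -0.71 nt over all genes. The members' median at 24 h ran from -2.77 to 0.85 nt when 1 library was left out, above 0 without DMSO replicate 23. The MHY libraries were lower with no overlap in 17.9% of genes and in 3 members, Eef1a1, Eef1d and Eef2, again in libraries that the choice used. At 48 h 17 genes (0.872%) were called, all shorter under MHY and 13 of them ribosomal protein genes. The median was -2.48 nt over the members, -3.02 nt over all genes and -5.94 nt over the ribosomal protein genes. The median of the members was -0.02 nt without MHY replicate 24, -4.65 nt without DMSO replicate 24 and -6.26 nt without MHY replicate 25, where that of all genes was 0.42, -3.33 and -5.75 nt. Tails in the MHY libraries were shorter with no overlap in 21.8% of genes and in 2 members, Eef2 and Naca.

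In 3 members the median tail was shorter under MHY at 48 h by more than in the other members, without passing the test. In Rack1 it was 91.8 nt (DMSO replicate 24), 99.4 nt (DMSO replicate 25), 84.5 nt (MHY replicate 24) and 92.1 nt (MHY replicate 25), a difference of -8.85 nt (SE 2.37, limma, adjusted p = 0.0601). Tpt1 had 79.6 and 91.9 nt under DMSO and 71.5 and 83.1 nt under MHY, a difference of -10.5 nt (SE 3.33, limma, adjusted p = 0.173). Eef2 had 96.96 and 98.7 nt under DMSO and 88.1 and 93.2 nt under MHY, a difference of -7.65 nt (SE 3.11, limma, adjusted p = 0.489). With MHY replicate 24 left out the differences were -4.43 nt in Rack1, -3.58 nt in Tpt1 and -4.81 nt in Eef2, and without DMSO replicate 25 they were -4.13, -3.37 and -6.57 nt. Without DMSO replicate 24 Rack1 stood at -11.8 nt (limma, adjusted p = 0.00190), Tpt1 at -15.7 nt (limma, adjusted p = 0.00422) and Eef1a1 at -6.96 nt (limma, adjusted p = 0.00633), against -4.93 nt (SE 1.59, limma, adjusted p = 0.178) for Eef1a1 with all libraries. Leaving out MHY replicate 25 also brought these 3 genes past the test, at -12.03, -15.1 and -7.53 nt. The difference of Eef1a1 was -1.41 nt without DMSO replicate 25 (limma, adjusted p = 0.979) and -1.17 nt without MHY replicate 24 (limma, adjusted p = 0.971). Over the 8 fits that left out 1 library, of either time, Rack1 was called in 5, Tpt1 in 3 and Eef1a1 in 3.

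Apart from Rack1, Tpt1, Eef2 and Eef1a1, the members had fitted differences in median tail from -4.21 nt (Naca) to 7.01 nt (Btf3) at 48 h. That of Naca was -0.84 nt without MHY replicate 24 and -6.52 nt without MHY replicate 25. Btf3 had 90.2 and 89.9 nt under DMSO and 93.5 and 101.8 nt under MHY, with no overlap and a difference of 7.01 nt (SE 3.85, limma, adjusted p = 0.692), and 12.0% of all genes were longer with no overlap. Without MHY replicate 24 the difference of Btf3 was 11.8 nt, and without MHY replicate 25 it was 3.51 nt. Nap1l1 had 103.9 and 105.3 nt under DMSO and 109.6 and 108.9 nt under MHY (4.57 nt, SE 5.17, limma, adjusted p = 0.914). Among the subunits of eEF1B the differences were -0.10 nt in Eef1b2 (SE 3.30), -0.74 nt in Eef1d (SE 5.88) and 0.05 nt in Eef1g (SE 3.77). Each of these 3 values lay within 2 SE both of 0 and of the difference of Eef1a1. They also turned on single libraries, running from -4.08 to 5.34 nt in Eef1b2, from -9.13 to 5.95 nt in Eef1d and from -6.00 to 9.11 nt in Eef1g when each 48 h library was left out in turn.

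**Figure D4:**
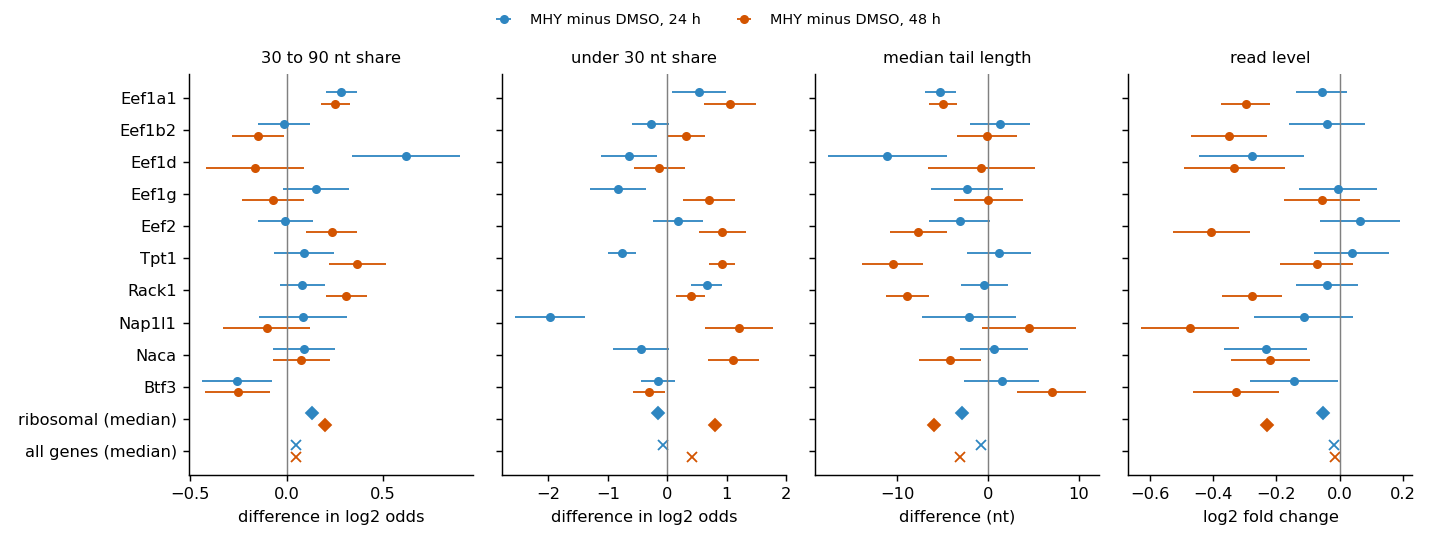
MHY minus DMSO for each member in 4 panels (log2 odds of the 30 to 90 nt share, log2 odds of the under 30 nt share, median tail in nt, log2 fold change of read level), at 24 h in blue and 48 h in orange. Points with bars are fitted differences with their SE, diamonds are medians over 83 ribosomal protein genes and crosses are medians over all genes tested. The read levels at 48 h all lie below 0, while the tail measures fall on both sides of it.

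The level of the members at 48 h was the measure in which they lay on one side. All 10 differences were below 0, with a median of -0.31 on the log2 scale, beside -0.02 over 4116 genes tested, of which 51.5% were below 0. The MHY libraries were lower with no overlap in 9 of 10 members, all but Eef1g, against 21.4% of all genes. The test over all genes called 71 genes (1.72%), 17 higher and 54 lower, among them 2 members, Eef1a1 and Eef2. Scaling by total reads instead moved the median of all genes to 0.10 and that of the members to -0.20. Under that scaling Eef1g and Tpt1 were above 0 and 8 of 10 members had MHY libraries that were lower with no overlap, against 14.4% of all genes. In bulk RNA, less of an mRNA per cell and fewer cells that carry it cannot be told apart.

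Eef1a1 fell at 48 h. Its level was 10518 (DMSO replicate 24), 12677 (DMSO replicate 25), 9137 (MHY replicate 24) and 9737 (MHY replicate 25) normalised RPM, with no overlap. The log2 fold change was -0.30 (SE 0.08, limma, adjusted p = 0.0165), and -0.19 (adjusted p = 0.0472) with scaling by total reads. Within the 2 runs, from RPM without further scaling, it was -0.21 and -0.18. Without DMSO replicate 25 it was -0.16 (limma, adjusted p = 0.719) and without MHY replicate 24 -0.25 (limma, adjusted p = 0.326). It was no longer called either without DMSO replicate 21 or without DMSO replicate 23, libraries of the other time that share the estimate of the spread.

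Eef2 fell as well. It had 2009 and 2439 normalised RPM under DMSO (replicates 24 and 25) and 1527 and 1908 under MHY (replicates 24 and 25), and both MHY libraries were the lower ones. The log2 fold change was -0.41 (SE 0.12, limma, adjusted p = 0.0482), and -0.37 and -0.20 within the runs. It was -0.25 without DMSO replicate 25 and -0.23 without MHY replicate 24, and not called in either case. The call for Eef2 was also lost with scaling by total reads, with a stricter barcode confidence, and in a fit of the 48 h libraries alone, where Eef1a1 was not called either. Leaving out any 1 of the 4 libraries of 24 h lost it as well (limma, adjusted p = 0.0764 to 0.114), so that Eef2 was called in 2 of the 8 fits that left out a library, and Eef1a1 in 4.

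The other members had level differences at 48 h below 0 that did not pass the test of the 4116 genes. Those of Eef1b2 and Rack1 did pass in 2 other fits of the 8 libraries, with a replicate block (limma, adjusted p = 0.0264 and 0.0135) and with no filter on low counts (0.00918 and 4.49e-06). Nap1l1 had 848 and 787 normalised RPM under DMSO and 515 and 684 under MHY (log2 fold change -0.47, SE 0.15, limma, adjusted p = 0.0865). Nap1l1 without MHY replicate 24 was at -0.25 (limma, adjusted p = 0.845), and without MHY replicate 25 at -0.66 (limma, adjusted p = 0.00781). Eef1b2 had 2351 and 2234 under DMSO and 1733 and 1872 under MHY (-0.35, SE 0.12, limma, adjusted p = 0.109). Rack1 had 5259 and 5919 under DMSO and 4424 and 4914 under MHY (-0.28, SE 0.09, limma, adjusted p = 0.102), and -0.18 without DMSO replicate 25. Eef1d (-0.33, SE 0.16), Btf3 (-0.33, SE 0.13) and Naca (-0.22, SE 0.13) had adjusted p of 0.353, 0.245 and 0.484 in limma. Tpt1 (-0.07, SE 0.12) and Eef1g (-0.06, SE 0.12) were close to the median of all genes. Whether Eef1g and Eef1b2, partners in eEF1B, differ in this was not tested.

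**Figure D5:**
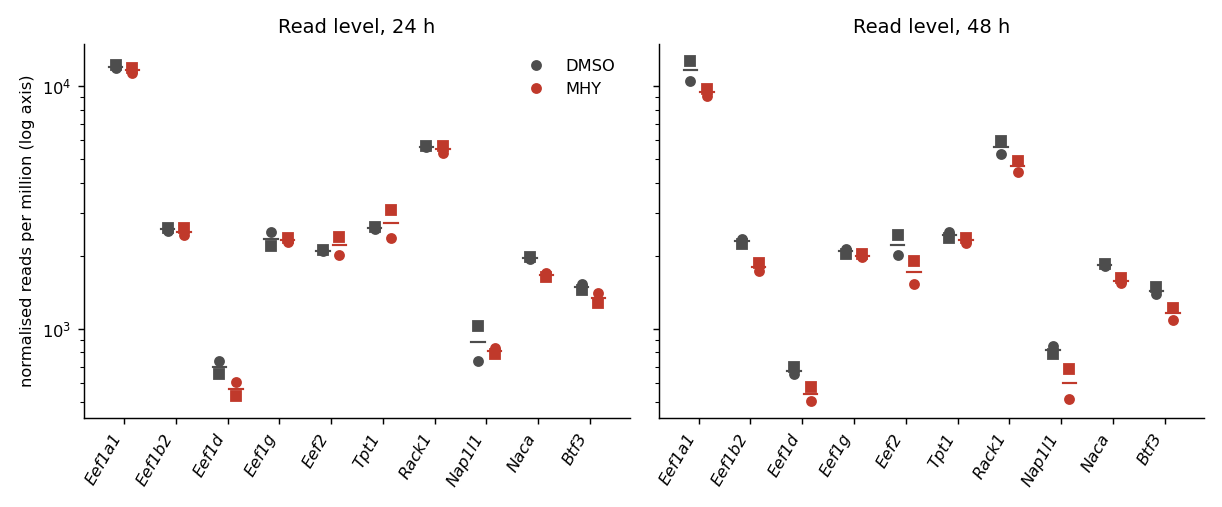
Normalised RPM of each member (y axis, log scale) in each library at 24 h and 48 h, DMSO in grey and MHY in red, with circles for replicate 21 or 24, squares for replicate 23 or 25 and short lines for group means. At 48 h the MHY points lie below the DMSO points for all members but Eef1g, and at 24 h this is so for Eef1d, Naca and Btf3.

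At 24 h no member was called in level. The median difference of the members was -0.05 beside -0.02 over all genes, and ran from -0.09 to -0.01 when 1 library was left out. Of 4116 genes 2 (0.0486%) were called, both higher under MHY and neither a member, and 184 genes had an unadjusted p under 0.05. In 3 members, Eef1d, Naca and Btf3, MHY libraries were lower with no overlap, against 18.7% of all genes. The effect at 48 h minus that at 24 h was below 0 in 9 of 10 members for level, with a median of -0.21 (all genes -0.01), and 14 of 4116 genes (0.340%) were called. That median was -0.11 without MHY replicate 24, -0.13 without DMSO replicate 25 and -0.27 without MHY replicate 21, and 7 to 10 members were below 0 when 1 library was left out. With scaling by total reads it was -0.13, with 7 of 10 below 0, beside 0.07 over all genes. No member was among those 14 (lowest limma adjusted p of a member tested 0.415, Eef2, -0.47, SE 0.17). Without MHY replicate 25 the difference of Eef2 was -0.61 and past the test (limma, adjusted p = 0.0485), and without MHY replicate 24 it was -0.28 (limma, adjusted p = 0.995). For the 30 to 90 nt share, the under 30 nt share and the median tail the same comparison called 0 of 1949 genes (0% in each), with 69, 166 and 86 genes at an unadjusted p under 0.05. In Eef1a1 the difference between the 2 effects on the 30 to 90 nt share was -0.03 (SE 0.11).

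Ribosomal protein mRNAs were also mostly lower in level at 48 h. Of 83 genes 82 were below 0, 5 were called lower and none higher, and the median was -0.23. Of the 9 other non-ribosomal TOP mRNAs (Eif3a, Eif3e, Eif3f, Eif3h, Eif4b, Pabpc1, Hnrnpa1, Npm1 and Vim) 7 were below 0, with a median of -0.20. Npm1, the nucleolar protein nucleophosmin, fell (-0.36, SE 0.09, limma, adjusted p = 0.0123), and Vim, the intermediate filament protein vimentin, rose (1.07, SE 0.19, limma, adjusted p = 1.01e-05). Pabpc1, the cytoplasmic poly(A)-binding protein, had -0.43 (SE 0.15, limma, adjusted p = 0.141). None of the 9 was called in a tail measure at either time.

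The other genes of elongation and of the nascent chain, most of which are not known as TOP mRNAs, were measured alongside. Of 29 other elongation genes 17 had enough reads for level and 11 for tails. In that list 14 of 17 were below 0 in level at 48 h, with a median of -0.16, and no gene was called in either direction. Their median difference in the 30 to 90 nt share at 48 h was -0.34 in log2 odds, against 0.00 for the members, with 2 of 11 above 0 and none called. Eif5a, the hypusinated elongation factor, had a level difference of -0.14 (SE 0.11, limma, adjusted p = 0.640). Of 18 other partners of the nascent chain 17 were measured for level and 12 for tails. Of those 17 genes 12 were below 0 at 48 h, with a median of -0.14, and none was called in any measure.

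The 30 to 90 nt share of Eef1a1 over the 8 libraries was most like that of Rplp1 (Pearson r = 0.99), Rpl23a (0.98) and Pgk1 (0.97), among 222 other genes with at least 100 reads in each library. Among these points, those of 24 h hold the Eef1a1 shares that the list was chosen on, so this order describes those values too and supports nothing. The 4 libraries of 48 h are too few for a correlation of their own. Rplp1 and Rpl23a encode ribosomal proteins, and Pgk1 encodes a glycolytic enzyme. The median correlation with those 222 genes was 0.55, as all points come from the same 8 libraries, which differ in tails over all genes. Among the members Tpt1 (0.93) and Eef2 (0.81) were closest, and Rack1 had 0.72. Eef1g (0.57) and Naca (0.48) were near the median, while Nap1l1 (0.32), Btf3 (0.24) and Eef1b2 (0.06) were lower. Eef1d had fewer than 100 reads in 1 library and was not compared.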

How the data were processed

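Per the labels and the authors' methods, reads of the 8 libraries were called with Guppy, assigned to barcodes with Deeplexicon and aligned with minimap2 (version 2.20) to GENCODE vM17 transcripts (mm10), and Nanopolish estimated tails. The authors' deposited table gives for each alignment a tail length in nt, a barcode confidence (a fraction) and a mapping quality (a score). The members and lists were chosen with earlier results of these data known. Of 2439710 alignments 1926118 were kept: PASS, class mRNA, 1 line per read and transcript, without mitochondrial (66955) and pseudogene (12169) ones. Class shares (log2 odds after adding 0.5 read) and medians (nt) were fitted with limma 3.58.1 (R 4.3.3), weighted by read number, for genes with 10 reads in each library. Levels were fitted with limma voom for genes with 10 reads in 2 libraries or more. All 8 libraries shared 1 fit without a replicate block, since over all genes the deviations of libraries with the same number correlated at -0.02 to 0.05. P-values were adjusted by Benjamini-Hochberg over all genes tested. Libraries of a group differed beyond sampling noise (chi-square per degree of freedom 1.12 to 1.41). By rule all 10 members were named, with the genes whose 30 to 90 nt share was most like that of Eef1a1. Sequences and coordinates came from GENCODE vM21 transcripts, which gave the coordinates of the deposited table. Alternatives left out libraries or changed filters, weights, class bounds and scaling. Scripts were tested on simulated data. Intervals cover counting error only.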

Additional observations from a re-analysis of the deposited data

Results flagged for a closer look

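In 2 members the share of tails under 30 nt lay on opposite sides at the 2 times in all libraries, lower at 24 h and higher at 48 h, a pattern that 90 of 1949 genes (4.62%) had. In Tpt1 the MHY libraries were lower with no overlap at 24 h and higher with no overlap at 48 h, so that the effect at 48 h minus that at 24 h was 1.68 in log2 odds, which did not pass the test of the difference (limma, adjusted p = 0.178). In Nap1l1 the share was 0.741% and 2.90% under DMSO and 0.529% and 0% (0 of 137 reads) under MHY at 24 h, and 1.66% and 0.826% under DMSO and 2.86% and 2.65% under MHY at 48 h. The difference between the effects was 3.18 (limma, adjusted p = 0.334) and rests on 0 to 8 reads a library.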

How the results depend on the processing

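No result changed sign past the test. Of the summary values recomputed under alternatives, 503 stayed within 1.5 times the count or within 1 SD of the members' median, 48 counts were lower and 46 higher than that, and 12 medians moved by more. The tail measures rest on as few as 92 reads of a member in a library and on 2 libraries per group. In simulated reads at the real library sizes, 51 of 193 genes changed by 1 in log2 odds of the 30 to 90 nt share were called, so most were missed. For level, 150 of 200 genes changed by 1 on the log2 scale were called. The exact permutation test of 2 against 2 libraries can give no p below 0.333. Counts of genes called turned on single 48 h libraries, and the cause was not tested.

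For the 30 to 90 nt share at 24 h, 4 genes were called with the libraries of the time point alone and 4 with the replicate block, against 0. At 48 h, against 5, there were 1 with a mapping quality of at least 10, 3 with a barcode confidence of at least 0.75, 1 with no filter beyond 1 read in each library, 0 without weights, 3 with a class of 40 to 80 nt, 1 with the time point alone and 8 with the replicate block. For tails under 30 nt at 48 h, against 7, there were 12 with the mapping quality filter, 0 with no read filter, 0 without weights, 0 with a bound of 20 nt, 1 with the time point alone and 17 with the replicate block. For the difference of the effects in that class, against 0, there were 4 with the mapping quality filter, 1 with the barcode filter, 2 with at least 30 reads in each library and 6 with the replicate block. The members' median was 0.13 with the bound of 20 nt at 24 h (against -0.36), and 1.19 with the barcode filter for the difference of the effects (against 0.67).

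For the median tail at 48 h, against 17 genes, there were 29 with the barcode filter, 26 with transcripts in place of genes, 6 with no read filter, 0 without weights and 0 with the time point alone. Members called there, against 0, were 3 with the barcode filter (Rack1, Tpt1 and Eef1a1), 1 with transcripts (Rack1) and 1 with the replicate block (Rack1, -7.33 nt, limma, adjusted p = 0.0166). For level at 24 h 1 gene was called with the mapping quality filter, against 2. At 48 h 147 genes were called with no filter on low counts, against 71. Members called in level at 48 h, against 2, were 1 with the barcode filter, 1 with scaling by total reads (members' median -0.20 against -0.31), 4 with no filter (Eef1b2 and Rack1 added), 0 with the time point alone and 4 with the replicate block (the same 4 genes). For the difference of the effects on level, against 14, there were 6 with the mapping quality filter, 9 with the barcode filter, 9 with transcripts and 29 with no filter. Over all genes the numbers shared by libraries showed no pairing. At 48 h replicate 24 was nonetheless higher than replicate 25 under either treatment in the 30 to 90 nt share of Rack1, Tpt1 and Eef1a1. Whether single members were paired was not tested. The replicate block changed no other call of a member.

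Leaving out 1 library at a time, the 30 to 90 nt share gave 0 to 4 genes and a members' median of 0.018 to 0.198 at 24 h, and at 48 h 0 to 36 genes, 0 to 3 members and a members' median of -0.028 to 0.138, with a median of -0.163 to 0.0744 for the difference of the effects. Tails under 30 nt gave 0 to 1 genes and a median of -0.669 to -0.205 at 24 h, 0 to 10 genes and 0.23 to 0.91 at 48 h, and 0 to 3 genes and 0.48 to 1.07 for the difference. The members' median tail difference at 24 h ran from -2.77 to 0.85 nt with 0 genes called. The median tail at 48 h gave 0 to 41 genes, 0 to 3 members and -6.26 to -0.0205 nt. Level gave 0 to 3 genes at 24 h, 17 to 141 genes and 0 to 5 members at 48 h, and 0 to 30 genes, 0 to 1 members and a median of -0.27 to -0.11 for the difference. Without MHY replicate 25 the members called in level at 48 h were Eef1a1, Eef1b2, Eef2, Rack1 and Nap1l1, and there was none without DMSO replicate 25, MHY replicate 24, DMSO replicate 21 or DMSO replicate 23. The differences within runs, the count of members without overlap under scaling by total reads, the shares of genes without overlap at both times, and the medians without Eef1a1, were chosen after seeing the data.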

Other observations

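The minor transcripts of the members differed in how far their tails were from those of the leading transcript, and no difference was tested. A retained-intron transcript of Eef1g (339 reads, 8.11% of the gene) had a median tail of 85.2 nt beside 95.9 nt in the leading transcript, and 50.1% of its reads in the 30 to 90 nt class beside 43.9%. In Eef1b2 (103 reads, 80.7 nt beside 81.5 nt) and Rack1 (436 reads, 96.1 nt beside 94.7 nt) the most read minor transcript was close to the leading one. A longer transcript of Naca (151 reads) had a median of 113 nt beside 100.2 nt. In Nap1l1, the most read minor transcript (ENSMUST00000219143, 261 reads) had a median of 107 nt beside 110 nt. The next (ENSMUST00000065917, 232 reads) had 116 nt, and both start upstream of the leading one. The median mapping quality was 0 for these minor transcripts of Eef1g, Eef1b2, Rack1 and Naca, so these reads could not be told apart from those of the leading transcript. It was 60 for those of Nap1l1. Reads of Eef2, the longest transcript among the elongation factors, reached the most common read start to within 20 nt in 14.8% of cases. This was so for 68.3% in Eef1a1 and 80.1% in Rack1.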
